A study of Homo sapiens with 10 samples.

Results

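The stanniocalcin genes STC1 and STC2 were followed through all 10 RNA-seq libraries of a study on human lung cancer cells. They are 2 of the 46427 genes in the deposited tables and were taken by symbol. STC1 was selected on its expression values in the drug-survived and sphere libraries against 2D cells, and STC2 because it is the other member of the family, so their levels in those contrasts are a description with no test.

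Stanniocalcins are secreted glycoprotein dimers, first known in fish as hormones that lower calcium uptake, while in mammals they act mainly near the cells that release them. Both bind and inhibit the pappalysins PAPP-A and PAPP-A2, metalloproteases that cut insulin-like growth factor binding proteins and so free the growth factors, and STC2 has also been tied to restraint of store-operated calcium entry. Transcription of STC1 is a known response to hypoxia-inducible factor (HIF), and that of STC2 to HIF and to ATF4, the transcription factor of the integrated stress response.

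NCI-H460 (H460) and A549 are established lines from human lung carcinomas. H460 cells grown flat on plastic (2D, parental) gave 3 libraries. H460 cells that survived 3 days of drug and then had 3 days in fresh medium gave 1 library after 4 µM cisplatin (CR), 2 after 5 nM paclitaxel (PR) and 1 after 0.5 µM doxorubicin (DR). After the fresh medium they were re-plated, and the cells that attached were taken as survivors. Tumor spheroid (TS) cells, whose labels also call them CTC, were passaged at least 3 times in suspension and gave 1 library from H460 and 1 from A549, beside 1 library of A549 in 2D. Their medium differed too, since the study lists serum for 2D cells but added growth factors and supplements, with no serum, for TS cells. Medium and suspension thus changed together in both lines, and their separate parts in any difference between TS and 2D were not tested. The surviving cells came from a short exposure, no library of untreated cells held for the same time was used here, and the labels do not say whether replicates were separate cultures, so p-values measure the spread between these libraries only. CR, DR, both TS groups and A549 in 2D have no replicate check.

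The libraries held 59499787 to 89541774 counted reads. A count above 0 was found for 21036 to 21603 genes in parental cells and 22720 to 26745 in drug-survived cells. KRT8 and KRT18, keratins of simple epithelium, lay at 283 to 3866 and 190 to 3229 FPKM (fragments per kilobase of transcript, scaled to the library's size), while CDH1 reached at most 11.9 and EPCAM 1.04. Of 4 lung lineage markers SFTPB was at 0 in all 10 libraries, and NKX2-1, SFTPC and NAPSA stayed at or below 0.427. The 3 endothelial markers summed to at most 0.182 FPKM. Of the 3 immune markers PTPRC and CD3E stayed at or below 0.157, but with CD68, which is also a lysosomal protein of other cells, the sum was 15.03 to 16.9 in parental, 30.7 to 57.9 in drug-survived and 21.2 in TS H460 cells, and 19.6 and 69.8 in 2D and TS A549 cells. The 3 fibroblast markers summed to 0.430 to 2.87, 1.79 to 13.8 and 26.7 FPKM in the same H460 groups and to 1.85 and 1.64 in A549. The part of these genes in the results was not tested. In bulk RNA, fewer cells with a transcript and less transcript per cell cannot be told apart.

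STC2 (NCBI Gene 8614) lies on the minus strand of chromosome 5 at 173314723 to 173328414 (RefSeq, GRCh38.p14) and has 4 exons. The 250 bases before the RefSeq start of STC2 were searched on both strands for the HIF core motifs ACGTG and GCGTG and for TGATGNAA, the site of C/EBP-ATF dimers, because the 2 regulators named above bind such letters. GCGTG was found 3 times and the others 0 times. The stretch that holds the matches, 240 to 213 bases before the start, is printed with the matches in capitals, of which the first 2 are on the opposite strand and share 1 base.

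STC2, chr5:173328627-173328654, minus strand, GRCh38.p14: atacaCACGCACGCaaacGCGTGgccgc

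Of 35116 RefSeq promoters searched in windows of the same length, 32.2% held GCGTG, 18.5% ACGTG and 3.14% TGATGNAA, and 7.76% held at least 3 matches to either HIF core. These promoters were not matched to that of STC2 for base content, and the promoter of STC1 was not examined. The stretch also lies in the transcribed 5′ end of a longer GENCODE model of STC2. A match is a run of letters and no evidence of binding.

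STC1 (NCBI Gene 6781) lies on the minus strand of chromosome 8 at 23841929 to 23854806 (RefSeq, GRCh38.p14) and has 4 exons. No other annotated gene overlaps STC1 or STC2 in GENCODE 29, so their reads have no antisense partner in that annotation.

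STC1 was low in parental H460 cells and far higher in every drug-survived library. Its FPKM in the 3 parental libraries were 0.128, 0.838 and 0.483, from 42, 240 and 167 reads. In the drug-survived libraries they were 9.21 in CR, 21.5 and 21.8 in the 2 PR libraries and 17.7 in DR, from 3185, 7016, 5636 and 6908 reads. The groups did not overlap, and even CR, the lowest survivor, stood 11.0-fold above the highest parental library. The 95% Poisson interval of the 42 reads was 30.3 to 56.8, which takes each read as independent and covers counting error only.

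The mean of STC1 was 0.483 ± 0.355 FPKM (SD, n = 3) in parental and 17.6 ± 5.86 FPKM (SD, n = 4) in drug-survived cells, a 36.4-fold ratio of means (log2 5.18). By drug the ratio was 19.1-fold for CR, 44.8-fold for PR and 36.7-fold for DR. Ratios of more than 2-fold upward were seen for 11.3% of genes in CR, 15.1% in PR and 11.6% in DR. Against this background STC1 ranked 126 of 13412 genes by its ratio in all survivors. Its choice on this contrast favours a high place, so the rank is a description. All 3 parental levels were under 1 FPKM, the ranking limit, which STC1 thus met only in its other libraries. STC1 moved from above 38.4% to 46.0% of the 19672 protein-coding genes in parental cells to above 76.0% to 88.0% in the survivors. The ratio depended on the parental library, since without parental replicate 1 the log2 ratio was 4.73 and without replicate 2 it was 5.85.

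STC2 started from a far higher level and also stood higher in every drug-survived library. Parental cells had 24.9, 13.4 and 14.98 FPKM, from 11189, 5276 and 7135 reads. The survivors had 135.6 in CR, 115.3 and 198.6 in PR and 87.9 in DR, from 64708, 52064, 70886 and 47295 reads. Again the groups did not overlap, with DR, the lowest survivor, 3.53-fold above the highest parental library.

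The mean of STC2 was 17.7 ± 6.24 FPKM (SD, n = 3) in parental and 134.4 ± 47.1 FPKM (SD, n = 4) in drug-survived cells, a 7.57-fold ratio (log2 2.92), with 7.64-fold for CR, 8.84-fold for PR and 4.95-fold for DR. STC2 ranked 334 of 13412 genes by this ratio, and the survivors' libraries placed it 264 to 596 among protein-coding genes by level. For comparison, 21.8% of genes had every drug-survived library above every parental library, as both stanniocalcins did.

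The 2 genes did not vary together within the parental group, where replicate 1 had the lowest STC1 and the highest STC2. Library names in the labels take 2 forms, with and without a hyphen, whose meaning is not given. Within the hyphen form (parental replicate 2 against CR, DR and PR replicate 2) the log2 ratio was 4.28 for STC1 and 3.40 for STC2, and within the other form (parental replicates 1 and 3 against PR replicate 1) it was 6.14 and 2.53. Scaling each library to 1 upper quartile raised the median log2 ratio of all genes in the drug contrast from 0.02 to 0.44 and gave 5.61 for STC1 and 3.34 for STC2.

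**Figure D1:**
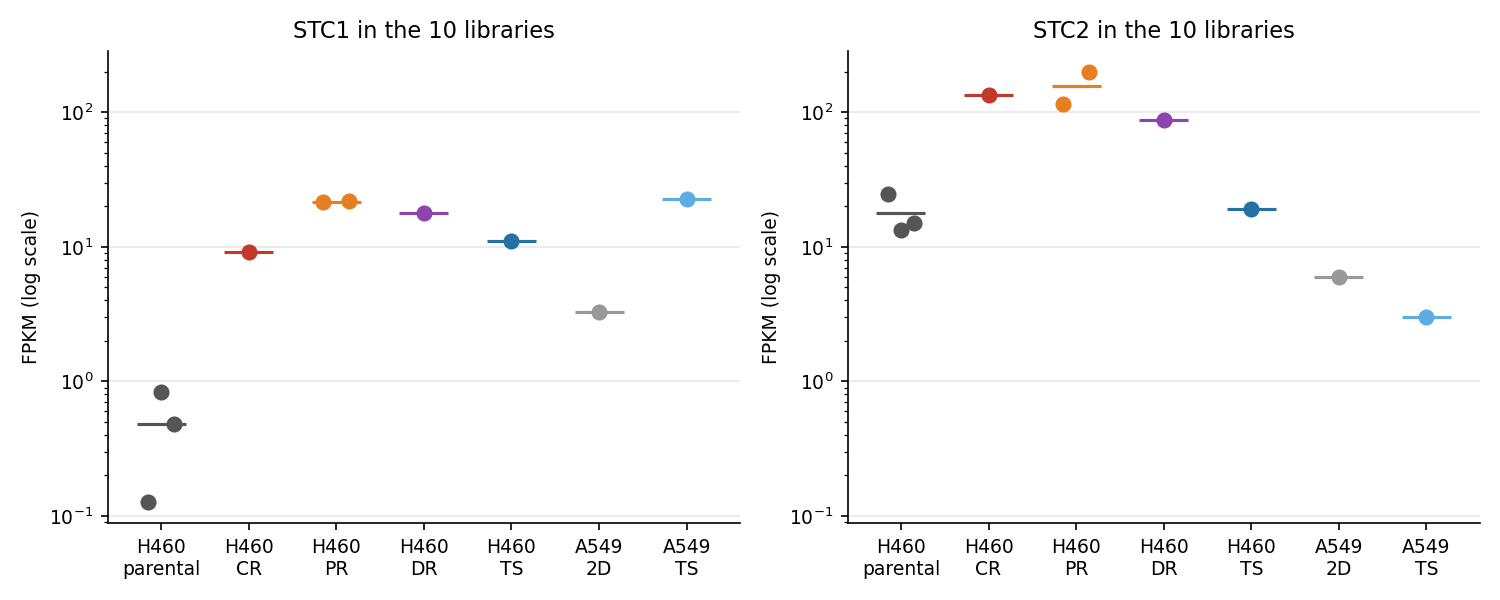
FPKM of STC1 (left) and STC2 (right) in each library on a log axis, with 1 point per library and a horizontal line at the group mean. All 4 drug-survived points lie above the 3 parental points in both panels, while the TS points lie above 2D for STC1 and within or below 2D for STC2.

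In tumor spheroids the family members parted. STC1 was 11.1 FPKM (3092 reads) in H460 TS cells, above each of the 3 parental libraries and between CR and DR. In A549 it was 3.27 FPKM (952 reads) in 2D and 22.6 FPKM (7115 reads) in TS, the highest level of STC1 in the series. The ratios were 23.0-fold in H460 (log2 4.52) and 6.91-fold in A549 (log2 2.79, 95% counting interval of the fold 6.46 to 7.40). More than 2-fold higher levels were seen for 3.61% of genes in H460 TS and 9.07% in A549 TS, and STC1 ranked 59 of 13358 and 258 of 13335. These contrasts also served to choose STC1, which favours such places.

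STC2 was 19.2 FPKM (7362 reads) in H460 TS cells, inside the parental range of 13.4 to 24.9, with a ratio of means of 1.08-fold. In A549 it was 5.96 FPKM (2393 reads) in 2D and 3.00 FPKM (1303 reads) in TS, 1.99-fold lower, with a TS-to-2D ratio of 0.503 (95% counting interval 0.470 to 0.538). The counting intervals take each read as independent and do not include the variation between cultures. STC1 was 1 of 58 genes, 0.432% of 13439, that were more than 2-fold higher in CR, PR, DR and both TS groups, a count that its choice fixes, and STC2 was not among them.

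**Figure D2:**
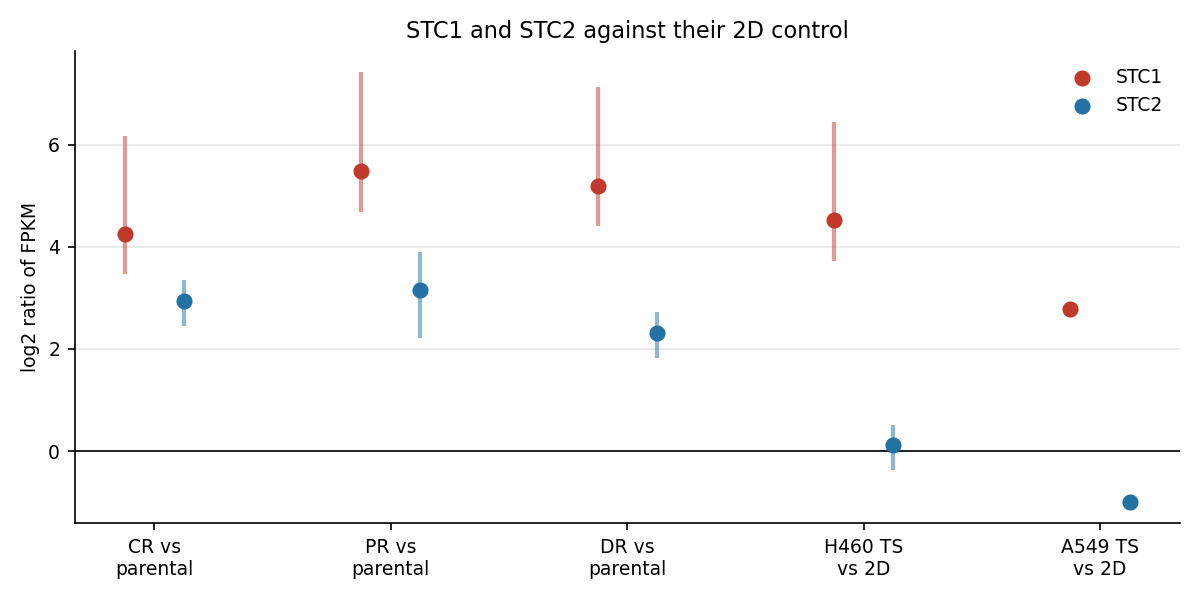
The log2 ratio of mean FPKM of STC1 and STC2 against the 2D cells of the same line for each drug and for TS. Bars run from the smallest to the largest ratio between single libraries, A549 has 1 library on each side and no visible bar, and both genes lie above 0 for each drug while only STC1 does so in A549 TS.

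The balance between the family members therefore differed widely on this length-corrected scale. The FPKM of STC2 was 195.2, 16.0 and 31.0 times that of STC1 in the parental libraries, 14.7 times in CR, 5.37 and 9.11 times in PR and 4.96 times in DR. It was 1.72 times in H460 TS and 1.82 times in A549 2D. In A549 TS the ratio was 0.132, the only library of the 10 in which STC1 exceeded STC2. The parental ratios lay above all the others, though the lowest of them, 16.0, was close to the 14.7 of CR.

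By mean level STC1 ran in the order parental H460, A549 2D, CR, H460 TS, DR, PR and A549 TS, and STC2 in the order A549 TS, A549 2D, parental H460, H460 TS, DR, CR and PR. Neighbours in these orders with 1 library each cannot be separated by a spread. Parental H460 and H460 TS did not differ in STC2 beyond the parental spread, and CR lay within the PR range of 115.3 to 198.6 FPKM.

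The lines and the drugs were then compared, contrasts that were not themselves used to choose the genes, with edgeR's quasi-likelihood test on counts and Benjamini-Hochberg adjustment over all genes fitted. STC2 was lower in A549 than in H460, with a log2 fold change of -1.997 ± 0.39 (SE, 95% interval -2.91 to -1.08, adjusted p = 0.0123 by edgeR) over 2 A549 and 4 H460 libraries and with culture as a covariate. Both A549 libraries lay below all 4 H460 libraries. At this threshold 9.42% of 18372 genes were lower and 14.4% higher in A549. The adjusted p of STC2 ran from 2.29e-05 to 0.0492 over the alternatives.

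STC1 gave a log2 fold change of 2.11 ± 0.64 (SE, 95% interval 0.60 to 3.62) in the same edgeR fit, which missed the threshold at an adjusted p of 0.0533. The A549 2D library exceeded all 3 parental libraries and A549 TS exceeded H460 TS. The same parental and TS libraries served in the selection of STC1, so this test is not independent of it. The edgeR call was made without parental replicate 1 (adjusted p = 0.0282), without H460 TS (0.0243) or without A549 TS (0.0228), where A549 is left with 1 library that is assumed to vary like H460, and without A549 2D, again with 1 A549 library, the log2 fold change was 1.05 (adjusted p = 0.514), while the adjusted p over all alternatives ran from 0.00846 to 0.514.

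Between drugs, PR was set against CR and DR, the survivors of the 2 DNA-damaging drugs. STC1 differed by 0.55 ± 0.28 on the log2 scale (SE, 95% interval -0.15 to 1.24, adjusted p = 0.298 by edgeR) and STC2 by 0.33 ± 0.33 (95% interval -0.47 to 1.13, adjusted p = 0.579). Neither passed, beside 0.224% of 19601 genes called higher and 0.0204% lower, and the intervals allow differences of either sign. Both PR libraries had more STC1 than CR or DR, and without DR the log2 fold change of 1.05 passed (adjusted p = 0.0421), but CR was then the only library set against PR and the spread came from the 2 PR libraries alone. For STC2 the PR values lay on both sides of CR, and without PR replicate 2 the estimate was -0.14. Over the alternatives the adjusted p ran from 0.0421 to 0.788 for STC1 and from 0.283 to 0.982 for STC2.

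The proteins that stanniocalcins inhibit, and the growth factor system these act on, were followed in a list of 13 genes. In drug-survived against parental H460 cells, 11 could be tested by edgeR, and 6 rose while 0 fell, beside 18.5% of 18398 genes called higher and 15.3% lower. The median log2 fold change was 0.81 for the list and 0.06 over all genes. The count rested on single libraries, being 1 without parental replicate 1, 2 without parental replicate 2, PR replicate 1 or PR replicate 2, and 3 without DR. On leaving out 1 library at a time it ran from 1 to 8.

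PAPPA, which encodes PAPP-A, measured 8.40, 13.2 and 42.4 FPKM in parental cells and 78.7 in CR, 77.1 and 73.1 in PR and 55.0 in DR. All survivors exceeded all parental libraries, whose own values were spread widely. The log2 fold change was 1.59 ± 0.50 (SE, adjusted p = 0.0323 by edgeR), a call that was lost without parental replicate 1 (adjusted p = 0.0900) or 2 (0.124), CR (0.0517) or either PR library (0.0577 each), and PR alone against parental cells missed it (0.0790).

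PAPPA2, the gene of the second pappalysin, lay at 1.69 to 6.96 FPKM in parental and 2.38 to 6.29 FPKM in drug-survived cells, and the groups overlapped (log2 fold change -0.06 ± 0.45, adjusted p = 0.926 by edgeR). In A549 it was 0.0210 FPKM in 2D and 0.00552 in TS, lower than in H460 by edgeR (log2 fold change -8.62 ± 1.01, adjusted p = 0.00184).

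IGFBP4, the binding protein that PAPP-A cuts, measured 1.91, 4.22 and 4.95 FPKM in parental libraries. It measured 42.8 in CR, 38.3 and 42.9 in PR and 45.4 in DR. The groups stood far apart, at means of 3.69 ± 1.59 (SD, n = 3) and 42.3 ± 2.95 FPKM (SD, n = 4), with a log2 fold change of 3.40 ± 0.33 (SE, adjusted p = 0.000196 by edgeR) that kept its call under every alternative run. IGFBP5, cut by both pappalysins, stayed at or below 0.226 FPKM in H460 (log2 fold change -0.23, adjusted p = 0.706 by edgeR).

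IGF2, the fetal growth factor, passed by edgeR (log2 fold change 4.50 ± 1.25, adjusted p = 0.0197) at levels of 0.331 and 0.436 FPKM in PR and at most 0.0234 in CR, DR and parental cells, and lost the call without parental replicate 1 (0.0689) or 2 (0.0740, both adjusted p). It was also higher in PR than in CR and DR (log2 fold change 3.85, adjusted p = 0.0463 by edgeR). This call was lost without either PR library, as were nearly all calls of that contrast, so the loss is not particular to IGF2. The other 3 that rose were IGFBP2, which binds both growth factors (0.95, adjusted p = 0.0192), and the receptor adaptors IRS1 (0.73, 0.0336) and IRS2 (0.81, 0.0465), all by edgeR. IGF1R, the main receptor, gave 0.82 (adjusted p = 0.0761 by edgeR).

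**Figure D3:**
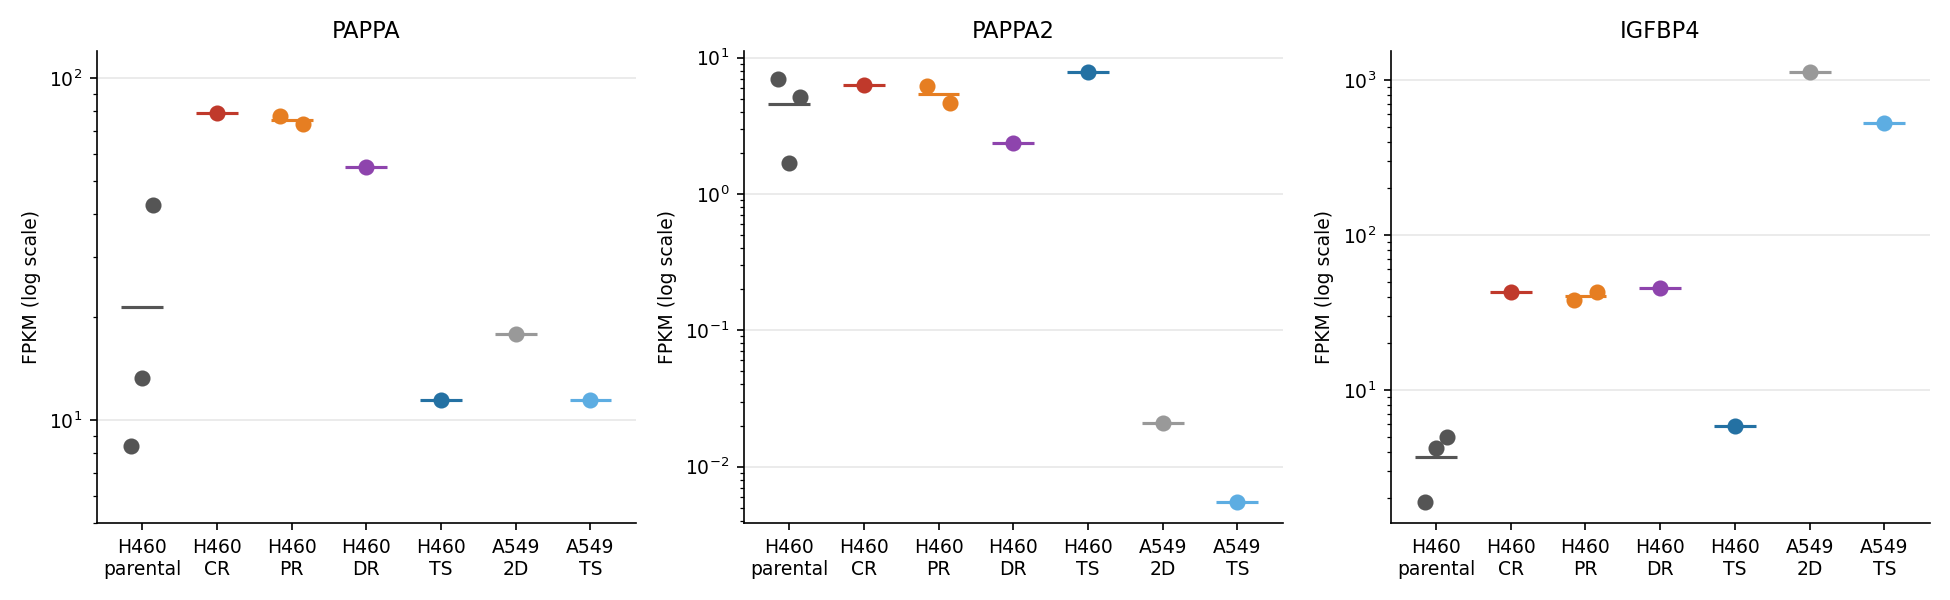
FPKM of PAPPA, PAPPA2 and IGFBP4 in each library on log axes that differ between panels, with 1 point per library and a line at the group mean. PAPPA and IGFBP4 are higher in all 4 drug-survived than in all 3 parental libraries, PAPPA2 overlaps, and A549 has IGFBP4 of 1122 and 532 FPKM with PAPPA2 of 0.0210 FPKM or less.

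The same genes were then read in the spheroids. PAPPA was 11.5 FPKM in H460 TS, within the parental range, and 17.9 in 2D and 11.4 in TS for A549. IGFBP4 was 5.90 FPKM in H460 TS, just above the parental libraries, and 1122 FPKM in 2D and 532 in TS for A549. IGF2 was 0.587 FPKM in A549 2D and 25.4 in TS, and 0.00748 in H460 TS. With the lines as replicates, 0 of 11 tested genes of the list were called in TS against 2D by edgeR (1 at an unadjusted p under 0.05, 0 by DESeq2, but 2 without H460 TS and 1 without A549 2D or A549 TS), where 0.147% of 18372 genes were called higher and 0.0435% lower.

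For PR against parental cells, where 17.5% of 19430 genes were called higher and 10.6% lower by edgeR, IGFBP4 (log2 fold change 3.21, adjusted p = 0.0016) and IGF2 (5.36, 0.00242) were the 2 of 11 tested list genes that rose. Between lines, edgeR called IGFBP4 (log2 fold change 7.59, adjusted p = 0.000399), IGF2 (8.50, 0.00351) and IRS1 (1.93, 0.00603) higher in A549 and PAPPA2 lower. Of 11 tested list genes 3 were thus higher and 1 lower, beside 14.4% and 9.42% of 18372 genes.

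Store-operated calcium entry, the refilling of calcium through ORAI channels opened by the sensor STIM1, was followed in 7 genes. In drug-survived cells 2 rose and 0 fell by edgeR, where 18.5% of all genes tested were called higher and 15.3% lower. ORAI3, a channel subunit, measured 0.819 to 2.08 FPKM in parental and 3.06 to 5.09 FPKM in drug-survived cells (log2 fold change 1.30 ± 0.35, adjusted p = 0.0162 by edgeR). SARAF, which damps this entry, measured 42.4 to 64.8 and 84.4 to 97.4 FPKM (0.71 ± 0.18, adjusted p = 0.0148 by edgeR).

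STIM1 measured 4.67 to 7.42 and 9.31 to 11.3 FPKM without overlap but missed the threshold (0.57 ± 0.21, adjusted p = 0.0549 by edgeR), and ORAI1, the main channel, gave -0.12 (adjusted p = 0.601). The ORAI3 call was lost without parental replicate 2 and with the form of library name as a covariate, and the SARAF call without parental replicate 1, while STIM1 passed by DESeq2 (adjusted p = 0.0480), by limma (0.0165), without parental replicate 3 (0.0294) and with upper-quartile scaling (0.0187), which called 4 of the 7. In TS cells 0 of 7 were called by edgeR and by DESeq2 (1 at an unadjusted p under 0.05 by edgeR). Over all 18372 genes, the background of each list in TS, edgeR called 0.147% higher and 0.0435% lower. STIM1, ORAI2 and ORAI3 were called higher in A549 than in H460, at log2 fold changes of 1.40, 2.07 and 2.03 (adjusted p = 0.0152, 0.0058 and 0.0188 by edgeR). These were 3 of 7 genes tested, with 0 lower, beside 14.4% of 18372 genes called higher and 9.42% lower.

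Of 7 phosphate carriers and calcium sensors, the classical targets of the hormone in kidney and fish gill, 3 could be tested in drug-survived cells and 0 were called by edgeR (1 at an unadjusted p under 0.05, and 2 called by DESeq2). Over all genes edgeR called 18.5% higher and 15.3% lower, and DESeq2 called 4451 of 31956 higher and 2957 lower. With 3 genes tested the list cannot be set apart from these shares. The calcium-sensing receptor CASR was at or below 0.0123 FPKM throughout. The phosphate carrier SLC20A1 measured 86.1 to 124 FPKM in parental and 126 to 213 FPKM in drug-survived cells, and was lower in A549 by edgeR (log2 fold change -1.78, adjusted p = 0.00432). SLC34A3, a kidney phosphate carrier, was listed at 0 in all parental libraries and at 0.876 and 0.618 FPKM in PR against 0.0257 in CR and 0.0443 in DR. PR exceeded CR and DR by 4.05 on the log2 scale (adjusted p = 0.0463 by edgeR). This call was also lost without either PR library, but so were nearly all calls of that contrast, so the loss is not particular to SLC34A3.

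HIF is set by subunits, hydroxylases that mark them for decay and co-factors, 11 genes here. Among 10 tested in drug-survived cells, 3 rose and 1 fell by edgeR, beside shares of 18.5% and 15.3% over all genes. The list is too short to set its shares apart from these. HIF1A, the subunit best known for the hypoxic response, measured 47.5 to 60.6 FPKM in parental and 56.4 to 87.7 in drug-survived cells and missed the threshold (0.26 ± 0.21, adjusted p = 0.373 by edgeR). EPAS1, which encodes HIF-2 alpha, rose from 13.4 to 27.8 FPKM in parental to 31.8 to 55.6 FPKM in drug-survived cells (1.02 ± 0.28, adjusted p = 0.0182 by edgeR).

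CITED2, which competes with HIF for a co-activator, rose by 0.93 (adjusted p = 0.0317), the partner subunit gene ARNT2 rose at levels of at most 0.243 FPKM (3.14, 0.00513), and EGLN3, a hydroxylase, fell by 0.73 (0.042), all by edgeR on the log2 scale. The count of 4 called was 2 without parental replicate 1, CR, DR or PR replicate 2 and 1 without parental replicate 2, where the adjusted p of EPAS1 was 0.0544, and 2 with the form of library name as a covariate. In TS cells 0 of 10 were called by edgeR and by DESeq2 (1 at an unadjusted p under 0.05 by edgeR, and 1 called without H460 TS).

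Of 18 genes known to be induced by HIF that could be tested in drug-survived cells, 5 rose and 2 fell by edgeR, beside 18.5% higher and 15.3% lower over all genes. The median log2 fold change was 0.30 for the list and 0.06 over all genes. ADM, a vasodilator peptide, measured 3.83, 4.34 and 4.17 FPKM in parental libraries and 11.8 in CR, 14.003 and 29.7 in PR and 10.8 in DR (1.87 ± 0.31, adjusted p = 0.00182 by edgeR). NDRG1, a stress-induced growth regulator (log2 fold change 1.58, adjusted p = 0.00656), and P4HA2, a collagen prolyl hydroxylase (1.11, 0.00691), rose likewise, as did KDM3A and VEGFA, while PFKFB3 and BNIP3 fell. CA9, a carbonic anhydrase often read as a sign of hypoxia, could not be tested in this fit and lay at or below 0.150 FPKM in parental and 0.0223 FPKM in drug-survived cells. Without parental replicate 2 the count of 7 called was 4, and on leaving out 1 library at a time it ran from 4 to 8.

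In TS cells 18 of 19 tested HIF-induced genes had a positive log2 fold change with a median of 0.67, 7 reached an unadjusted p under 0.05 and 0 were called by edgeR (1 by DESeq2). Over all 18372 genes of this edgeR fit the median was -0.009 and 1363 reached an unadjusted p under 0.05. Only 0.147% were called higher and 0.0435% lower, so 0 calls among 19 genes do not set the list apart. CA9 was 0.425 FPKM in H460 TS, and 1.495 in 2D and 19.7 in TS for A549. ANGPTL4, a lipase inhibitor, was 24.6 FPKM in H460 TS against 1.96 to 9.89 in 2D, and 26.9 and 72.4 in A549. In A549 TS, ADM (64.1 FPKM in 2D and 32.9 in TS), PFKFB3 (69.9 and 32.4) and VEGFA (12.9 and 9.88) were lower than in 2D, while in H460 TS ADM (6.49) and VEGFA (17.9) were above all parental libraries. The positive fitted values of ADM (0.08) and VEGFA (0.15) are therefore averages of opposite signs in the 2 lines. In A549 against H460, 6 of 19 were higher and 2 lower by edgeR, beside 14.4% and 9.42% of all genes, among them CA9 (log2 fold change 4.50, adjusted p = 0.0206).

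The unfolded protein and integrated stress responses act on STC2 through PERK and ATF4. Of 19 genes tested in drug-survived cells 4 rose and 3 fell by edgeR, near the shares of 18.5% and 15.3% over all genes, and the median log2 fold change of 0.05 was near the 0.06 of all genes. DNAJB9, a chaperone of the endoplasmic reticulum, measured 1.77 to 2.39 FPKM in parental and 6.65 to 10.1 FPKM in drug-survived cells (1.802 ± 0.197, adjusted p = 0.000268 by edgeR). DDIT3, the stress factor CHOP, rose from 9.43 to 13.8 FPKM to 18.0 to 49.2 FPKM (1.11 ± 0.31, adjusted p = 0.019 by edgeR), ATF3 by 2.32 (0.030) and SESN2 by 1.24 (0.00446).

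The ATF4 transcript itself was 258 to 324 FPKM in parental and 116 to 227 FPKM in drug-survived cells, all below parental, and missed the threshold (-0.47 ± 0.20, adjusted p = 0.0881 by edgeR), though it passed by limma (-0.73, adjusted p = 0.0326) and with the form of library name as a covariate (-0.63, 0.0471). ASNS, the asparagine synthetase, fell from 56.8 to 76.8 FPKM to 17.7 to 40.2 FPKM (-1.25 ± 0.29, adjusted p = 0.00902 by edgeR), and PSAT1, a serine synthesis enzyme, fell likewise (-1.25, 0.00861). The third gene that fell was the kinase gene EIF2AK4. The DDIT3 call was lost without parental replicate 2 or 3 and with the form of library name as a covariate. That of ATF3 was lost without parental replicate 1 or 2, without PR replicate 2 and with the same covariate. The count of 7 called was 4 without parental replicate 2, and on leaving out 1 library at a time it ran from 4 to 9. In TS cells 0 of 19 were called by edgeR (1 at an unadjusted p under 0.05, and DNAJB9 alone called by DESeq2).

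**Figure D4:**
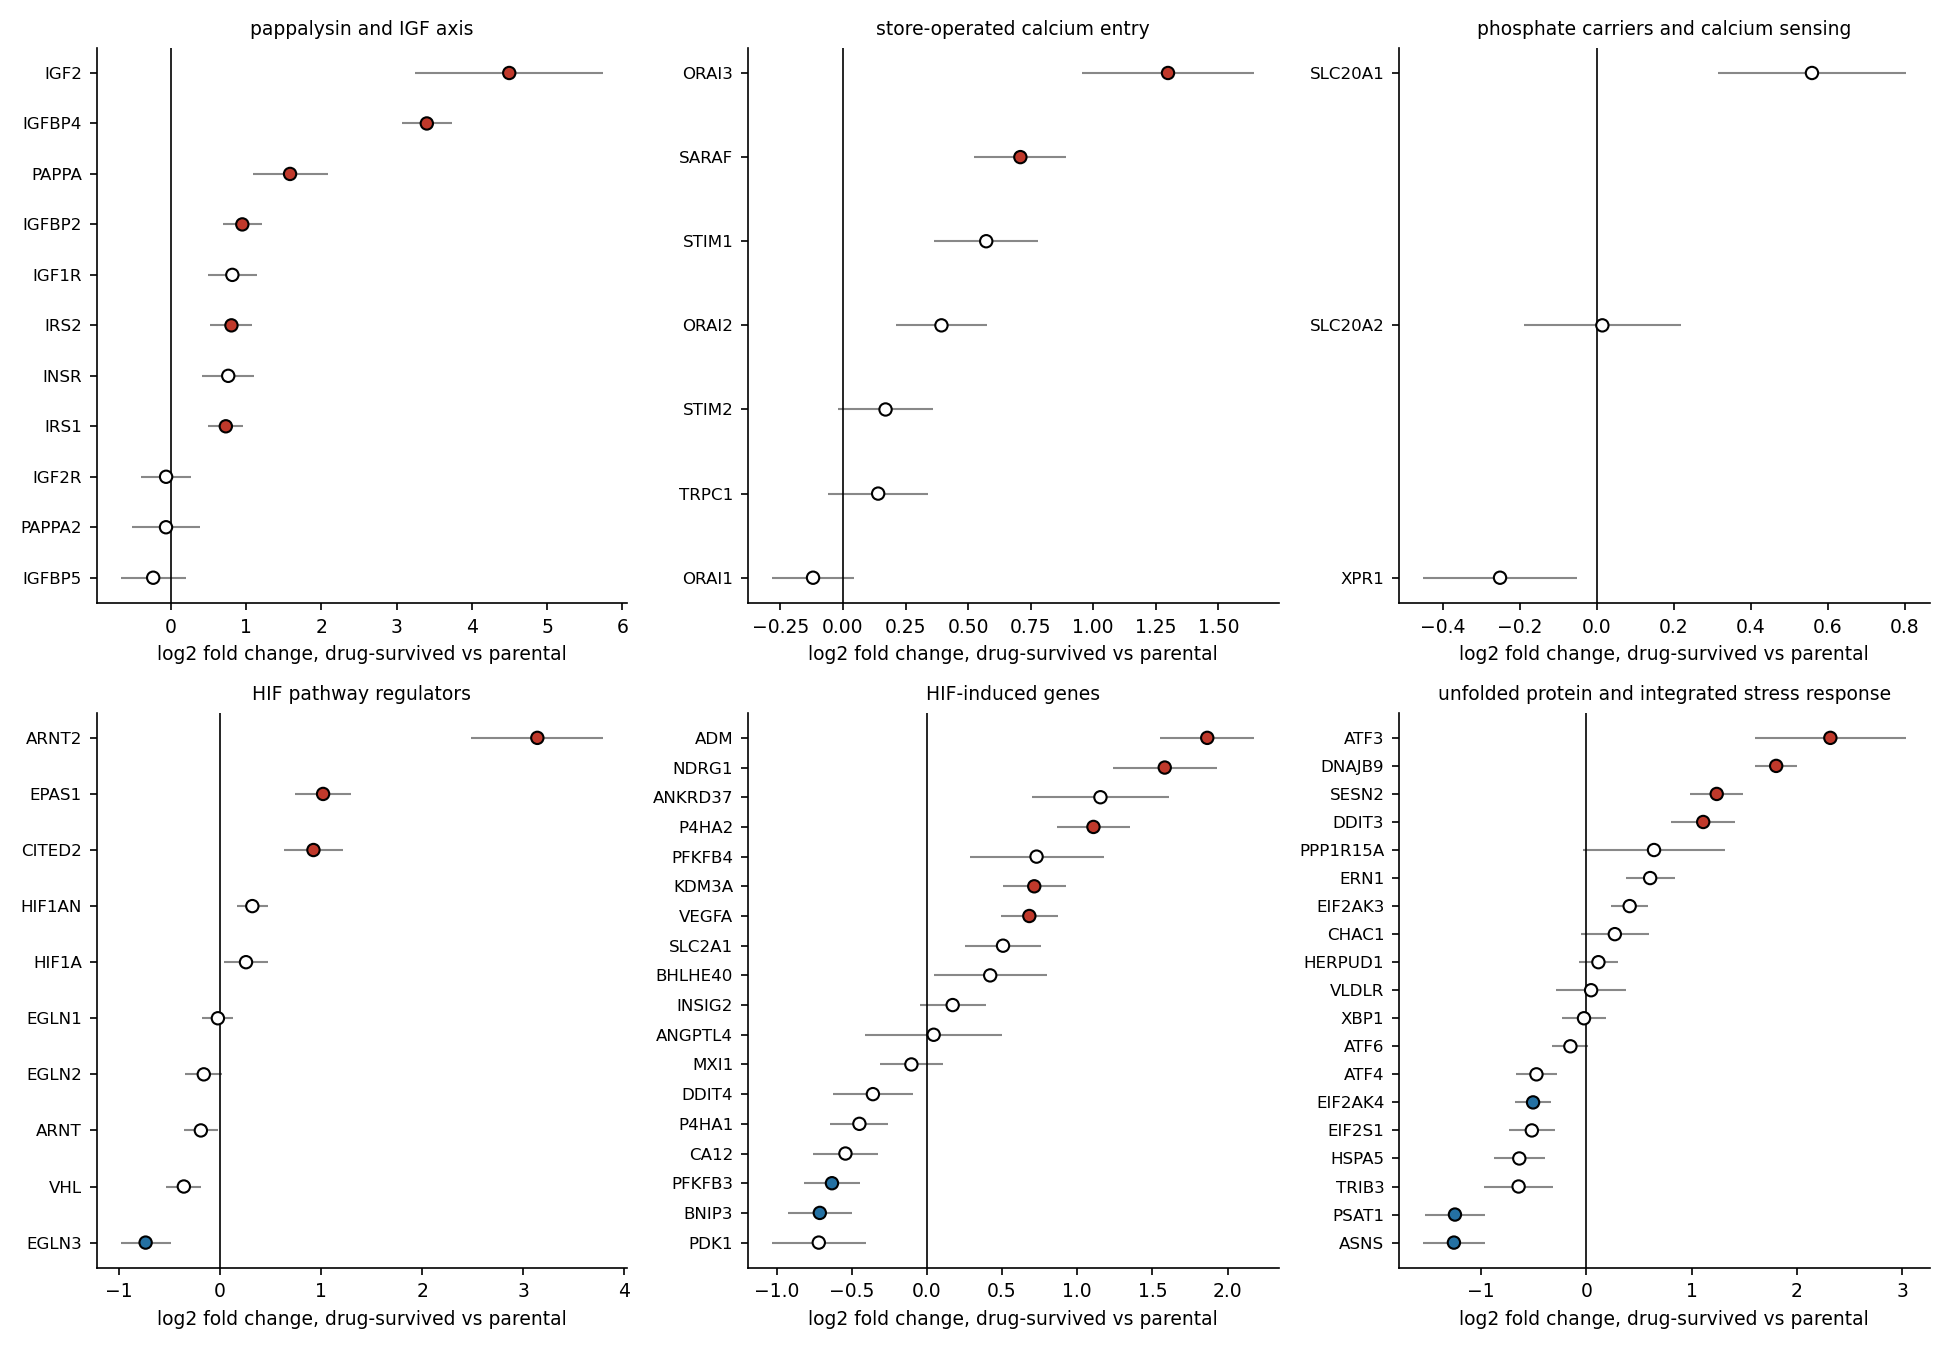
The log2 fold change in drug-survived against parental H460 cells for the tested genes of 6 lists, with bars of 1 SE from edgeR and horizontal axes that differ between panels. Red points rose and blue points fell at an adjusted p under 0.05, white points did not pass, and all 6 called genes of the pappalysin list are red while the HIF and stress lists hold both colours.

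The genes whose pattern was most like each member were ranked by Pearson's r of log2(FPKM + 1) over the 10 libraries, which share depth and the contrasts above, among 13438 genes. For STC1 these were VGLL4, a TEAD co-factor (r = 0.938), LINC01138 (0.933), PIK3R3, a regulatory subunit of PI3-kinase (0.928), ACYP2 (0.923) and UBE2H, a ubiquitin-conjugating enzyme (0.921). VGLL4, for example, ran from 3.84 to 5.03 FPKM in parental, 7.98 to 10.6 in drug-survived and 9.07 in TS H460 cells, and 7.27 and 11.5 in A549 2D and TS. For STC2 they were POLH, the translesion DNA polymerase eta (0.989), LOC105377576 (0.981), ZNF83 (0.980), LOC107985934 (0.977) and LINC00476 (0.974). POLH ran from 2.98 to 3.77 FPKM in parental, 5.69 to 7.84 in drug-survived and 3.996 in TS H460 cells, and 2.63 and 1.97 in A549.

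STC2 had 324 genes at r of at least 0.9 and STC1 had 14. Over the 8 H460 libraries alone the leading genes changed, to CAMK1D for STC1 and to PHLDA3 for STC2, and 0 of the 5 genes were shared for either. The 5 genes named above still had r of 0.913 to 0.944 with STC1 and 0.951 to 0.982 with STC2 there. More genes stood close together, since 110 had r of at least 0.9 with STC1 and 895 with STC2. STC1 and STC2 themselves had r of 0.389 over 10 and 0.793 over the 8 H460 libraries. By r with STC1, STC2 was only in place 3362 of 13438 genes and place 783 of 13412.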

How the data were processed

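RNA of 10 libraries was poly(A)-selected and prepared with the TruSeq kit per the labels, and sequenced on Illumina HiSeq instruments. The submitters' processing notes name bcl2fastq 1.8.4, Trimmomatic, HISAT2 2.1.0, StringTie 2.1.3b and the build GRCh38, with no roles, and whether counting used strand is not given in the sources used here. The authors deposited, per gene and library, raw read counts, FPKM and TPM. The deposited counts were used for all tests except limma, which used the deposited FPKM, as did the levels and ratios of STC1, STC2 and list genes, and the deposited TPM was not tested. Counts may include PCR copies, so intervals cover counting error only. In every library more genes had a count of 2 than of 1, such as 987 against 672 in parental replicate 1. Whether both mates of a fragment were counted is not given, and if so the counting intervals are too narrow.

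Genes were tested with edgeR 4.0.16 (quasi-likelihood, TMM, filterByExpr) in R 4.3.3 and called at a Benjamini-Hochberg adjusted p under 0.05. The fits were drug-survived (CR, PR and DR together) against parental, PR against parental, TS against 2D with cell line as covariate, A549 against H460 from that fit, and PR against CR and DR. CR and DR enter as single libraries assumed to vary like the rest. Ratios of mean FPKM were ranked among genes with at least 1 FPKM in at least 2 libraries. Alternatives were DESeq2 1.42.0, limma 3.58.1 on log2(FPKM + 1), upper-quartile scaling, no filter on low counts, other pseudocounts, TMM-scaled CPM, leaving out each library, a replicate block and the form of library name. Counts were also simulated for each comparison with 4-fold changes in 100 genes and 8-fold changes in 100 others. Only genes above a limit on the mean count were changed, so genes with few reads are not covered. Of the 4-fold changes edgeR recovered 93% for the drug-survived comparison (18398 genes fitted) and 85% for PR against parental (19430). It recovered 59% and 52% for the TS and line comparisons (18372) and 89% for PR against CR and DR (19601). In the same order 5.88%, 9.05%, 5.19%, 6.80% and 15% of calls were false. Far fewer genes were changed than the 6220 called in the drug-survived comparison, and their signs were drawn at random. These shares therefore need not hold for the calls in the data. Figures used matplotlib 3.10.9.

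STC1, STC2 and the 6 gene lists were chosen with earlier results of these data known. Named genes were the members, the 5 genes most like each, up to 3 genes per list with the largest called change in the drug-survived and in the TS comparison, and PAPPA, PAPPA2, IGFBP4, IGFBP5, STIM1, HIF1A, CA9, ATF4 and DDIT3. Other list genes named (such as IRS1, IGF1R, SLC34A3 and ANGPTL4) were chosen after their values were seen, to account for the counts.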

Additional observations from a re-analysis of the deposited data

Results flagged for a closer look

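ADM in the drug-survived H460 libraries was the 1 result of 23 genes looked at in which 1 library stood far from the rest. PR replicate 2 had 29.7 FPKM against 10.8 to 14.003 in the other drug-survived libraries, a gap of 0.832 of the whole range just above Dixon's critical value for 4 libraries. Chance flags about 1 in 20 such groups. Without that library ADM gave a log2 fold change of 1.49 and kept its call. The same share was 0.676 for STC1 and 0.569 for STC2, below the critical value.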

How the results depend on the processing

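No called value changed sign under the alternatives run. On the log2(FPKM + 1) scale, whose pseudocount shrinks low levels, STC1 gave 3.61 for the survivors, 3.06 for H460 TS and 2.47 for A549 TS, and STC2 gave -0.80 for A549 TS. Upper-quartile scaling gave 2.89 for STC1 and -0.89 for STC2 in A549 TS. For STC1 in A549 against H460, DESeq2 gave 2.13 (adjusted p = 0.0144) and limma on log2(FPKM + 1) gave 1.32 (0.00846), both past the threshold, and the cause was not tested. Genes called numbered 3026 by limma for PR against parental (5455 by edgeR), 517 by DESeq2 for TS (35), and 1663 by DESeq2, 318 with upper-quartile scaling, 1227 with no filter and 143 by limma for PR against CR and DR (48). The share of calls that were higher went from 54.6% to 67.4% for the survivors and from 62.2% to 75.9% for PR with upper-quartile scaling.

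Leaving out 1 library at a time gave log2 ratios of 4.73 to 5.85 for STC1 and 2.67 to 3.24 for STC2 in the survivors and 4.07 to 5.19 and -0.06 to 0.43 in H460 TS. It gave 3.80 to 4.92 and 2.77 to 3.26 for CR, 5.03 to 6.15 and 2.70 to 3.48 for PR, and 4.75 to 5.86 and 2.14 to 2.63 for DR. Between lines it gave 1.05 to 2.75 and -2.66 to -1.59, and between drugs 0.17 to 1.05 and -0.14 to 0.71. Genes called ran from 4215 to 6585 (survivors), 950 to 6661 (PR, fewest without PR replicate 2), 6 to 322 (TS), 2359 to 3905 (lines) and 0 to 934 (PR against CR and DR), where 0 was the edgeR count without PR replicate 2 (4405 at an unadjusted p under 0.05).

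PR and parental libraries share replicate numbers only, and the differences between replicates 1 and 2 correlated at 0.0794 over 19430 genes. With the replicate block 6775 genes were called, against 6661 in the same 4 libraries without it, and the log2 ratio was 6.05 for STC1 and 3.05 for STC2. The genes most like STC1 and STC2 shared 0 and 0 of 5 between 10 and 8 libraries.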
